A study of Mus musculus with 12 samples.

Results

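The histone cluster genes are the genes that encode the core and linker histones and lie together in tandem groups in the mouse genome. They were chosen by name alone, as every gene on the array whose name starts with Hist and a digit, and 34 genes with 44 probes met this, out of 27670 genes or other features with 41174 probes. The 34 genes comprised 6 H1, 11 H2A, 8 H2B, 3 H3 and 6 H4 genes. Hist3h2bb, counted with H2B by its name in the files, has the RefSeq symbol H2bu1-ps, whose ending marks a pseudogene. By the names in the files, 24 belong to cluster 1, 6 to cluster 2, 3 to cluster 3 and 1 to cluster 4, and in build GRCm38.p6 the members matched to RefSeq promoters lie on chromosomes 13, 3, 11 and 6 in that order.

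Pairs of H2A and H2B and pairs of H3 and H4 form the core around which DNA is wound, and H1 binds the linker DNA between cores. Most cluster genes are transcribed chiefly during S phase, when new DNA needs packing, and their messages usually end in a stem-loop rather than a poly(A) tail. Some of them, Hist1h1c and Hist1h2bc among them, are also known to give polyadenylated messages in cells that do not divide. The labelling kit named in the labels primes on poly(A) tails, and how fully the stem-loop messages were copied was not measured.

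The RNAs came from NR-S1, a transplanted squamous cell carcinoma that was grown in the hind leg of male C3H/HeMsNrs mice and spreads to the lung. The primary tumours were unirradiated, irradiated with 8 Gy of gamma rays or irradiated with 5 Gy of carbon ions, and were sampled 1 week after the tumour had reached 7.5 mm. The lung metastases came from other mice whose primary tumour had been unirradiated or had received the same gamma or carbon dose, and were sampled 2 weeks after 7.5 mm. Laser microdissection was used to cut the tumour areas out of sections. The labels give each group 1 RNA, marked clone 1, and nothing on the age of the mice or on pooling of animals. Site and sampling time cannot be told apart in any comparison of a metastasis with a primary tumour.

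The 12 two-colour arrays made up 6 dye swaps, each of 2 arrays that held the same RNAs with the dyes exchanged. Of the 12 arrays, 10 held the unirradiated primary, and the other 2 compared the carbon-irradiated with the gamma-irradiated primary. A value below is a log2 ratio of the first-named RNA to the second, given as the mean ± SD of the 2 dye orientations. That SD is technical, no comparison has a biological replicate, and no p-value can be given. Genes whose ratio reached 2-fold, a log2 size of 1, in the same direction in both orientations count as called, and "rose" and "fell" are used for called genes alone. They count as measured where the brightest probe of the gene stood well above background on every array of the comparison, for either of the RNAs compared.

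Each array held 43379 spots that were not controls, 53.8% to 68.8% of them stood well above background in a given channel, and none was saturated. Of the 44 histone probes, 34 were well above background in all 24 channels and 5 in none. Hist1h1t, Hist1h2ac and Hist1h2be were not measured in any comparison, Hist3h2ba was measured in the gamma metastasis against the unirradiated primary alone, and Hist2h2aa2 was not measured in comparisons that involve the carbon metastasis. All 16 squamous keratinocyte markers, the cells the tumour is named for, were measured in both irradiated primaries, with medians of 0.07 for gamma and 0.14 for carbon. In the gamma primary 0 were called. In the carbon primary 1 was higher and 1 lower, and means ran from -1.51 for Krt16 to 1.24 for Col17a1. In the unirradiated, gamma and carbon metastases 14, 16 and 16 were measured, with medians of -0.21, 0.02 and -0.16. There 0, 1 and 0 were higher and 0 were lower. Of 15 lung epithelium markers, 12 were higher in the unirradiated metastasis and 13 in each of the other metastases, with medians between 3.78 and 4.42. Of 14 skeletal muscle markers, 13 were lower in the gamma primary, 6 in the carbon primary, and 13, 13 and 14 in the unirradiated, gamma and carbon metastases. Of the T and natural killer cell markers, 3 of 10 measured were higher in the gamma primary and 7 of 11 in the carbon primary, and of 7 measured neutrophil markers 4 were lower and 1, Ltf, was higher in the carbon primary. In RNA from mixed cells, fewer cells of a type and less RNA per cell cannot be told apart.

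Promoters from RefSeq were matched to 29 of the 34 genes, and 5 are shown: those of the 3 linker histone genes that were called, and 1 each from the H2A and H2B genes, as examples of the classes that differed in the carbon primary. Probes of several H2A and H2B genes gave nearly the same reading, so Hist1h2ak and Hist1h2bm are not known to be the sources of their signals. Each line gives the 200 bases before the start site, 5′ to 3′ on the gene's strand, build GRCm38.p6. Hist1h1c lies at chr13:23738607-23738806, plus strand. Hist1h1d lies at chr13:23554832-23555031, plus strand. Hist1h1e lies at chr13:23622559-23622758, minus strand. Hist1h2ak lies at chr13:21753913-21754112, minus strand, and Hist1h2bm lies at chr13:21721844-21722043, plus strand. Capitals mark matches, on either strand, to the TATA box TATAAA, the CCAAT box CCAAT, the octamer ATTTGCAT that is typical of H2B genes and the H1 box AAACACA that is typical of H1 genes.
Hist1h1c: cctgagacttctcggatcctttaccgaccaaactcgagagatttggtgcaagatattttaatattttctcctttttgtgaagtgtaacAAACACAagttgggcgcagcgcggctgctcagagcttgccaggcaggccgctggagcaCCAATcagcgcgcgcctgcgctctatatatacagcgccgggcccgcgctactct
Hist1h1d: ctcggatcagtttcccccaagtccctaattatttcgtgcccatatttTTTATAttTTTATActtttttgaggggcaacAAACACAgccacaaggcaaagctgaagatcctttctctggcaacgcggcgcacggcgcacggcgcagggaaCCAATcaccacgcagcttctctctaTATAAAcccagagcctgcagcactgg
Hist1h1e: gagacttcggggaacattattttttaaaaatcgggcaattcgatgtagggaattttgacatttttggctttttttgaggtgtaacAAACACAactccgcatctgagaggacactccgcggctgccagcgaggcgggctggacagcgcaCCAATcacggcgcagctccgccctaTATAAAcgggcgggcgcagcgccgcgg
Hist1h2ak: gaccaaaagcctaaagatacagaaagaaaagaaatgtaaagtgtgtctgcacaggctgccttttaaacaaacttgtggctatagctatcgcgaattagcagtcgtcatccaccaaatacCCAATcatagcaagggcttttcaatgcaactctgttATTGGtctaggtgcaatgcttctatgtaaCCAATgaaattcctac
Hist1h2bm: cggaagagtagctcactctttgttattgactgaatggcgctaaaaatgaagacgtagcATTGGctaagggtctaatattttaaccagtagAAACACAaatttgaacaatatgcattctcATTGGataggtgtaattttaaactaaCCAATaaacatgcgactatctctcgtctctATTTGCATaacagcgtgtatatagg

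In the 3 linker histone promoters the H1 box came before the CCAAT box. The H1 box began 112, 122 and 115 bases before the start site in Hist1h1c, Hist1h1d and Hist1h1e, and the CCAAT box began 54, 51 and 52 bases before it. A TATA box followed at 26 bases before the start in Hist1h1d and 27 in Hist1h1e. Hist1h1d held 2 more on the other strand, before its H1 box, and the letters TATAAA were not in this window of Hist1h1c. Over the full windows of 300 bases, from 250 before to 50 after the start, the CCAAT box was in 26 of 29 members (89.7%) against 37.4% of 32851 promoters of all genes. The TATA box was in 19 members (65.5%, against 13.6% of all promoters). The octamer was in 10 members (34.5%, against 1.74%), namely 4 of 5 H2B and 6 of 11 H2A promoters. The H1 box was in 9 (31%, against 7.18%), of which 5 were among the 6 H1 promoters. The E2F-type letters TTTGGCGC were in 0 members (0.514% of all promoters), and TTTCCCGC was in Hist1h4a alone (1.07% of all promoters). A match is a stretch of letters and says nothing of whether a factor is bound there. An interferon response element was in Hist1h2be alone (3.44% of all promoters). In the promoters shown, no match overlapped another.

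In the carbon primary against the unirradiated primary, Hist1h1c and Hist1h2bc rose and Hist1h1d and Hist1h1e fell. These 2 higher and 2 lower genes of 30 measured stand beside 3.9% of 15636 measured genes called higher and 1.07% called lower. In the gamma primary, 0 histone genes were called higher and Hist1h1d alone was lower, of 30 measured, beside 2.23% higher and 1.25% lower among 15579 genes. Where the carbon primary was set directly against the gamma primary, Hist1h1c was the 1 gene called higher and 0 were lower, of 30 measured, beside 0.884% and 0.16% of 15038 genes. With each array centred on its median in place of loess, none of these calls in the primaries was kept, since 1 orientation fell short of 2-fold for each. The means were then 1.32 for Hist1h1c, 1.37 for Hist1h2bc, -1.08 for Hist1h1d and -1.20 for Hist1h1e in the carbon primary, 1.23 for Hist1h1c directly against gamma and -1.17 for Hist1h1d in the gamma primary.

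Hist1h1c, which encodes the linker histone H1.2, read 1.38 with the carbon primary in Cy5 and 1.35 with it in Cy3, a mean of 1.36 ± 0.03 or 2.57-fold. The gamma primary read 0.10 and 0.005 for the same gene, a mean of 0.05 ± 0.07. Set directly against the gamma primary, the carbon primary read 1.25 in both orientations (1.25 ± 0.002, 2.38-fold). The difference was thus present on all 4 arrays that held the carbon primary, and the gamma primary lay at the level of the unirradiated one. Among metastases, the ratio to the unirradiated primary was -0.10 ± 0.04 for the unirradiated, 0.07 ± 0.01 for the gamma and 0.56 ± 0.04 for the carbon metastasis. The order from the highest was therefore carbon primary, carbon metastasis, and then the other 4 RNAs, which lay within 0.2 of each other. Taken through the unirradiated primary, the carbon metastasis read 0.66 ± 0.01 over the unirradiated metastasis, 0.49 ± 0.03 over the gamma metastasis and -0.80 ± 0.01 against the carbon primary, none past 2-fold.

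Hist1h2bc, an H2B gene, read 1.48 with the carbon primary in Cy5 and 1.24 in Cy3, a mean of 1.36 ± 0.17 or 2.57-fold over the unirradiated primary. The gamma primary read 0.45 and 0.21 (0.33 ± 0.17). Directly against the gamma primary, the carbon primary read 1.05 in Cy5 and 0.93 in Cy3, so 1 orientation lay just inside the 2-fold limit and the other just outside it. The 3 metastases lay between the gamma and the carbon primary, at 0.72 ± 0.15, 0.57 ± 0.10 and 0.77 ± 0.15 for unirradiated, gamma and carbon, and these values overlap within their SDs. A dimmer second probe of Hist1h2bc was above background in 3 of 24 channels and was not measured in the carbon primary comparison.

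Hist1h1d, which encodes the linker histone H1.3, was lower in every RNA set against the unirradiated primary. The gamma primary read -1.10 in Cy5 and -1.28 in Cy3 (-1.19 ± 0.13), and the carbon primary read -1.08 and -1.15 (-1.12 ± 0.05). Directly against each other the irradiated primaries read 0.03 and -0.14, on both sides of 0. The unirradiated metastasis read -1.83 and -2.04 (-1.93 ± 0.15, 3.82-fold), the gamma metastasis -1.25 and -1.55 (-1.40 ± 0.21), and the carbon metastasis -1.20 and -1.53 (-1.37 ± 0.23). The unirradiated primary was thus the highest of the 6 RNAs on all 10 arrays that held it. The skeletal muscle markers were also highest in that RNA, with medians of -2.25 in the gamma primary and -3.49, -3.70 and -3.56 in the unirradiated, gamma and carbon metastases. In the carbon primary their median was -1.03 in the Cy5 and -0.92 in the Cy3 orientation, and their part in the Hist1h1d values was not tested. The call rests on the brightest of 3 probes. A dimmer probe, above background in 20 of 24 channels, read -0.13 ± 0.18 in the gamma primary, 0.45 ± 0.16 in the carbon primary and 0.16 ± 0.26, 0.13 ± 0.23 and 0.13 ± 0.34 in the unirradiated, gamma and carbon metastases, and the third probe was below background in every channel. With the mean of all probes, Hist1h1d passed the 2-fold rule in no comparison, at -0.66 for the gamma primary, -0.33 for the carbon primary and -0.89, -0.63 and -0.62 for the metastases in the same order.

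Hist1h1e, which encodes the linker histone H1.4, read -1.17 with the carbon primary in Cy5 and -1.21 in Cy3, a mean of -1.19 ± 0.03 or 2.28-fold lower. The gamma primary read -0.60 and -0.80 (-0.70 ± 0.14). Directly against the gamma primary, the carbon primary read -0.77 and -0.25 (-0.51 ± 0.37). The unirradiated metastasis read -0.77 and -1.29, the gamma metastasis -0.74 and -0.94, and the carbon metastasis 0.55 and -1.08. Both orientations thus lay below 0 in 4 of the 5 RNAs, and the carbon metastasis gave opposite signs.

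**Figure D1:**
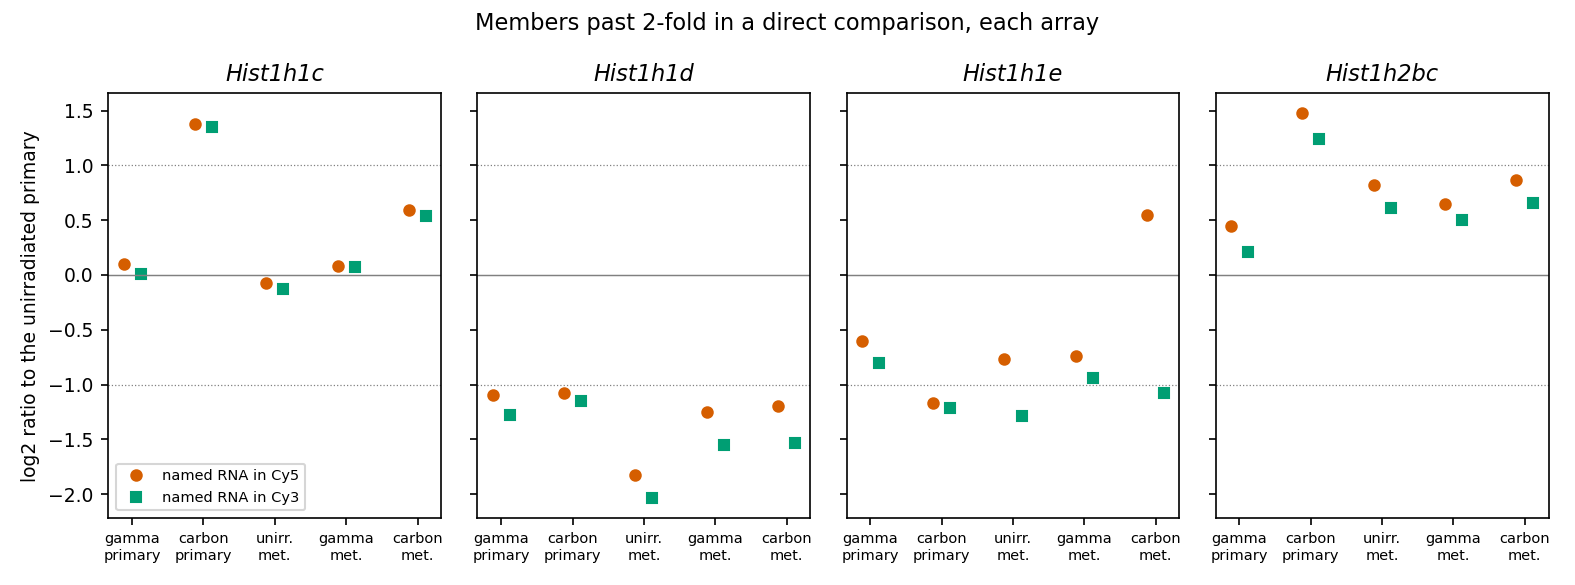
Log2 ratio to the unirradiated primary (vertical axis) of the 4 histone genes past 2-fold, in each of the 5 other RNAs (horizontal axis), with 1 point per array and dotted lines at 2-fold; met. is metastasis and unirr. is unirradiated. Hist1h1c stands apart in the carbon primary at 1.36, and Hist1h1d lies below -1 in all 5 RNAs.

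The remaining linker histone genes were not called. Hist1h1a, which encodes H1.1, lay below 0 in both orientations in all 5 RNAs, from -0.36 ± 0.34 in the gamma primary to -0.82 ± 0.25 in the carbon metastasis. Hist1h1b, which encodes H1.5, gave opposite signs in the 2 dye orientations in each comparison with the unirradiated primary. It read -0.26 with the gamma primary in Cy5 and 2.08 with it in Cy3, and -1.18 and 1.33 for the carbon primary, and its SD ran from 0.98 to 2.57 over the 6 direct comparisons. Directly between carbon and gamma it lay below 0 in both, at -1.57 and -0.19. Hist1h1b was the highest H1 gene by mean ratio in the gamma primary (0.91 ± 1.66), and that place rests on the Cy3 orientation alone. Hist1h1t, a linker histone of the testis, was not above background.

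In the carbon primary the H2A and H2B genes, whose products pair with each other, lay on opposite sides of 0. Of 10 measured H2A genes, 9 were below 0 in both orientations, with a median of -0.74. All 6 measured H2B genes were above 0 in both orientations, with a median of 0.78. The median over all measured genes was 0.02, and 1 of these 16 genes, Hist1h2bc, was called. The split was present in the direct comparison with the gamma primary, with medians of -0.75 for H2A (9 of 10 below 0 in both orientations) and 0.51 for H2B (6 of 6 above 0). In the gamma primary against the unirradiated primary, the medians were -0.02 for H2A and 0.22 for H2B. All 6 measured H2B genes were above 0 in both orientations there too, with means from 0.15 to 0.33. The H2A median there was 0.003 with the mean of all probes. Over all alternative settings, the H2A median in the carbon primary ran from -0.90 to -0.41 and the H2B median from 0.63 to 0.91. Against the gamma primary, those medians ran from -0.95 to -0.29 for H2A and from 0.39 to 0.64 for H2B.

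Among H2A genes, Hist1h2ak and Hist1h2ai were the lowest in the carbon primary. Hist1h2ak read -1.13 with the carbon primary in Cy5 and -0.67 in Cy3 (-0.90 ± 0.33), and Hist1h2ai read -1.02 and -0.77 (-0.90 ± 0.18). Their gamma primary values were -0.04 ± 0.25 and -0.09 ± 0.16. Both genes thus differed between the irradiated primaries by more than their SDs, at -0.87 ± 0.33 for Hist1h2ak and -0.84 ± 0.30 for Hist1h2ai on the arrays that held both RNAs. Hist2h2aa2 was the highest, at 0.63 and 0.21 (0.42 ± 0.29) in the carbon primary, and at 0.26 and 0.11 (0.19 ± 0.10) directly against gamma, and it was above background in 17 of 24 channels. The lowest H2A gene of the gamma primary was Hist1h2ae, at -0.13 and -0.33 (-0.23 ± 0.15), and the highest there was Hist2h2aa2, at 0.12 and 0.09 (0.11 ± 0.02). Hist3h2a was read by 3 probes that disagreed in the carbon primary, at -0.55 ± 0.20 for the brightest, -0.78 ± 0.01 and 0.81 ± 0.03.

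Among H2B genes, Hist1h2bm read 0.89 with the carbon primary in Cy5 and 0.68 in Cy3 (0.79 ± 0.15), Hist1h2bk 0.81 ± 0.26 and Hist3h2bb 0.78 ± 0.21. A second, dimmer probe of Hist1h2bk was above background in all 24 channels. It read 0.63 and 0.12 (0.37 ± 0.36) in the carbon primary, and 0.47 and -0.001 (0.24 ± 0.33) directly against gamma. The lowest H2B gene was Hist2h2be, at 0.19 and 0.25 (0.22 ± 0.04). It was also the lowest in the gamma primary, at 0.27 and 0.04 (0.15 ± 0.16), and directly against gamma, at 0.09 and 0.16 (0.12 ± 0.05). Hist2h2be was the dimmest H2B gene measured there, at a mean log2 intensity of 7.01, and the processing pulls dim ratios toward 0. Hist1h2ba, an H2B gene known from the testis, read 0.50 ± 0.24. Its promoter window overlaps that of Hist1h2aa, an H2A gene on the opposite strand, by 220 bases, and Hist1h2aa read -0.77 ± 0.86 in the same comparison. Hist1h2aa and Hist1h2ba were the 1 pair with overlapping windows among the 29 members that had one.

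**Figure D2:**
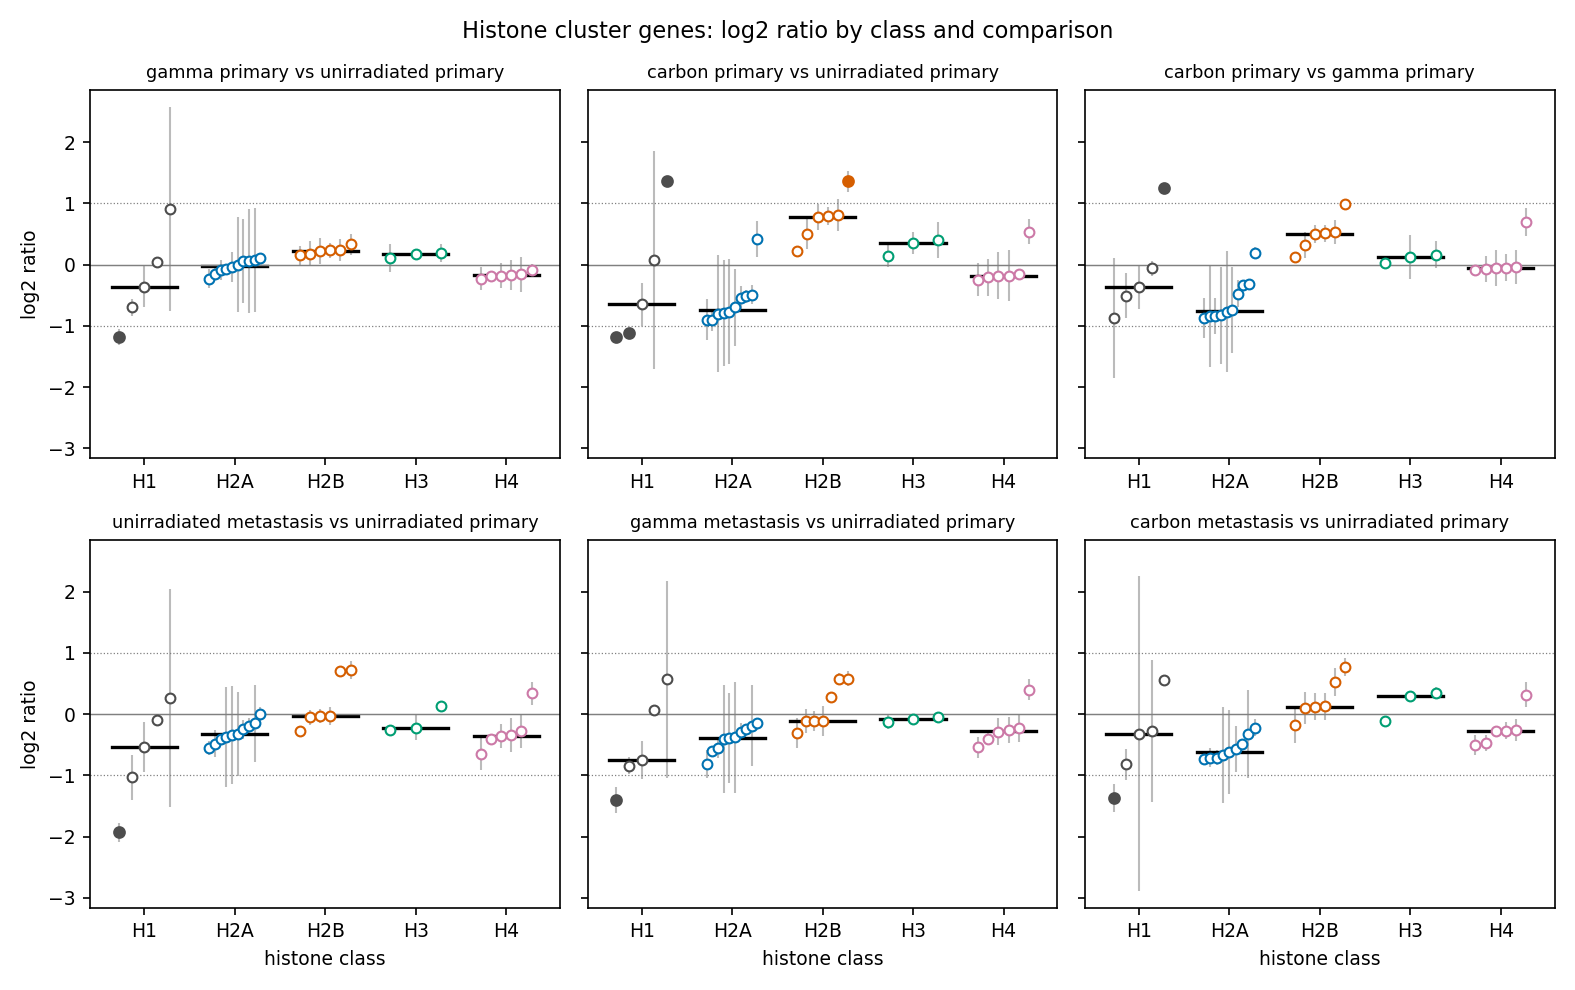
Log2 ratio (vertical axis) of each measured histone cluster gene by class (horizontal axis) in the 6 direct comparisons; circles are means of 2 dye orientations with their SD, filled where called, black bars are class medians, and dotted lines mark 2-fold. In the carbon primary the H2A median is -0.74 and the H2B median 0.78, and in the gamma primary they are -0.02 and 0.22.

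H3 and H4, which form the inner tetramer of the core, differed less. The 3 H3 genes were above 0 in both orientations in the carbon primary, with a median of 0.35, and ran from Hist1h3a, at 0.26 and 0.01 (0.14 ± 0.18), to Hist2h3c1, at 0.61 and 0.18 (0.40 ± 0.30). In the gamma primary they ran from Hist1h3a, at 0.27 and -0.05 (0.11 ± 0.23), to Hist2h3c1, at 0.29 and 0.09 (0.19 ± 0.14). In the direct comparison of carbon with gamma, Hist1h3d was the highest, at 0.32 and 0.01 (0.16 ± 0.22), and Hist1h3a the lowest, at 0.07 and -0.02 (0.02 ± 0.07). The H3 median there was 0.13, and with the carbon primary in Cy3 alone it was -0.02. The 6 H4 genes had a median of -0.18 in the carbon primary, which was 0.05 with the carbon primary in Cy3 alone, and -0.17 in the gamma primary. Hist1h4a was the lowest H4 gene in both, at -0.44 and -0.06 (-0.25 ± 0.27) for carbon and -0.37 and -0.09 (-0.23 ± 0.19) for gamma. Hist4h4 was the highest H4 gene of the gamma primary, at -0.02 and -0.16 (-0.09 ± 0.10). Hist1h4i differed from the other H4 genes in the carbon primary, where it read 0.40 and 0.69 (0.54 ± 0.20), and directly against gamma, where it read 0.54 and 0.86 (0.70 ± 0.23). By brightest probe, the other 5 H4 genes lay between -0.25 and -0.15 in the carbon primary and between -0.09 and -0.04 directly against gamma. Hist1h4i itself read -0.18 ± 0.06 in the gamma primary. A second probe of Hist1h4d, above background in all 24 channels, read -0.52 ± 0.26 in the carbon primary. It read -0.32 ± 0.17 in the gamma primary, below Hist1h4a in both, and -0.24 ± 0.25 directly between carbon and gamma.

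Several genes share near-identical coding sequence, and some probes gave nearly the same reading on all 12 arrays. By brightest probe, the largest gap between Hist1h4d and Hist1h4f was 0.06 on the log2 scale, and between Hist1h2bk and Hist3h2bb 0.06. It was 0.07 between Hist1h2bm and Hist3h2bb, and 0.12 between Hist1h2aa and Hist1h2af. Hist1h2ai and Hist1h2ak stayed within 0.16, and Hist1h3d and Hist2h3c1 within 0.17. Such genes may be counted as 1 reading, and the arrays do not show which of them the signal came from. Of the 6 measured H2B genes, Hist1h2bk, Hist1h2bm and Hist3h2bb are then 1 reading. Hist1h2aa is known mainly from the testis, and its ratio followed that of the brightest Hist1h2af probe. It did not follow the second Hist1h2af probe, which was above background in all 24 channels, and the largest gap was 1.00. The largest gap between the 2 Hist1h2af probes was 0.98, and the second probe stayed within 0.16 of Hist1h2ak.

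Several H2A genes read differently in the 2 dye orientations. By brightest probe, Hist1h2aa, Hist1h2af and Hist2h2ac read higher in Cy5 in all 6 direct comparisons and Hist1h2ab read higher in Cy3 in all 6. The SDs of these genes ran from 0.37 to 0.99. The second, dimmer probe of Hist1h2af went the other way and read lower in Cy5 in all 6. In the carbon primary it read -1.16 in Cy5 and -0.59 in Cy3 (-0.87 ± 0.41). Over all genes, the median SD was between 0.107 and 0.129 in the 6 direct comparisons, and over the histone genes it was between 0.15 and 0.225. When the same carbon minus gamma difference was taken through the unirradiated primary, between arrays of the same orientation, the dye effect cancelled. Hist1h2aa then read -0.83 ± 0.01 where the direct arrays gave -0.83 ± 0.79. Hist1h2af read -0.87 ± 0.01 against -0.84 ± 0.84, and Hist2h2ac -0.77 ± 0.06 against -0.74 ± 0.70. Hist1h1b, which the direct arrays gave as -0.88 ± 0.98, read -0.84 ± 0.12 by this route. Both routes put 9 of 10 measured H2A genes below 0 and 6 of 6 H2B genes above it, by their means, and the routes share the carbon and gamma RNAs but no array. By this route 2 genes were called higher, Hist1h1c at 1.31 ± 0.04 and Hist1h2bc at 1.03 ± 0.003.

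**Figure D3:**
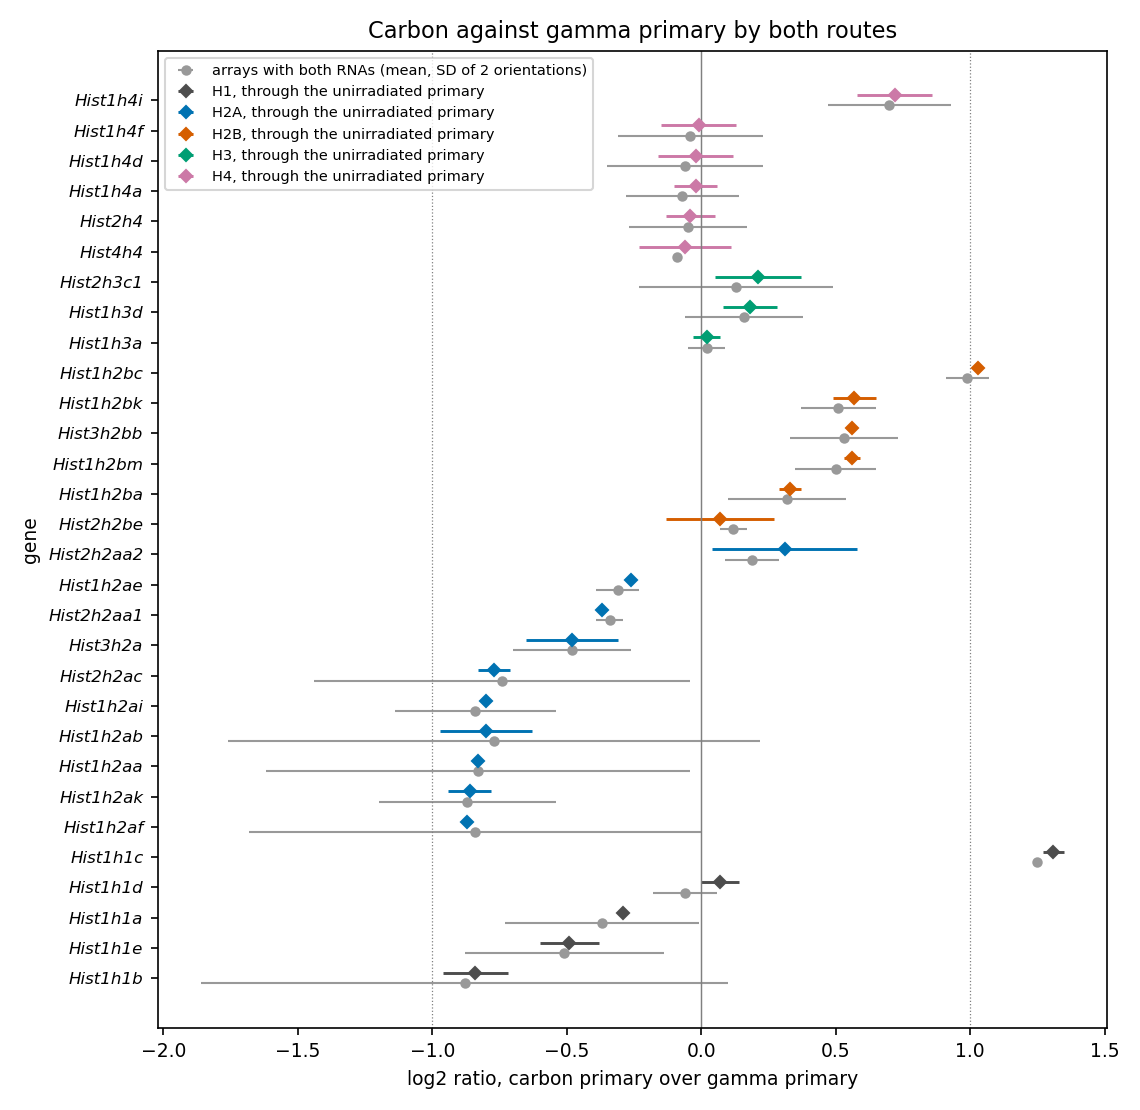
Log2 ratio of the carbon primary over the gamma primary (horizontal axis) for the 30 measured histone genes (vertical axis, grouped by class); grey circles are the arrays that held both RNAs and coloured diamonds the difference through the unirradiated primary, with the SD of 2 orientations. The means of both routes lie close together, and the SD of Hist1h2aa is 0.79 directly and 0.01 through the unirradiated primary.

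In the metastases more histone genes read below the unirradiated primary than above it, and 1 of them was called in each. Of 30 measured genes, 24 were below 0 by their mean and 17 in both orientations in the unirradiated metastasis, with a median of -0.27 where all genes had 0.05. In the gamma metastasis 25 of 31 were below 0 by their mean and 17 in both orientations (median -0.24, all genes 0.06). In the carbon metastasis 20 of 29 were below 0 by their mean and 16 in both orientations (median -0.27, all genes 0.06). Hist1h1d alone was lower in each, and 0 were higher. Among all measured genes, 10.4% were higher and 1.69% lower in the unirradiated metastasis, 8.82% and 1.1% in the gamma metastasis, and 8.21% and 1.03% in the carbon metastasis. Under median centring Hist1h1d was called in the unirradiated metastasis at -2.03 but not in the gamma (-1.65) or carbon (-1.58) metastasis. The lung epithelium and muscle markers given above moved in these same RNAs. So did, in the unirradiated, gamma and carbon metastases, neutrophil markers (10, 8 and 2 of 10 higher), macrophage markers (11, 7 and 6 of 12) and endothelium markers (9, 6 and 6 of 10). T and natural killer cell markers were higher in 9 of 13, 9 of 13 and 7 of 12 measured, B cell markers in 4 of 8, 8 of 10 and 4 of 6, and red blood cell markers in 3 of 4 each time. Of 10 fibroblast markers 5, 4 and 2 were higher and 0, 1 and 1 lower. The part of these cells in the histone ratios was not tested. Centring each array on its median, in place of loess, moved the median of all genes to -0.03, -0.10 and -0.11 and that of the histone genes to -0.51, -0.64 and -0.58 in the unirradiated, gamma and carbon metastases.

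By class, the H2A medians were -0.33, -0.38 and -0.62 and the H4 medians -0.35, -0.28 and -0.28 in the unirradiated, gamma and carbon metastases. Hist1h4a was the lowest H4 gene in all 3, at -0.84 and -0.47 in the unirradiated, -0.66 and -0.42 in the gamma and -0.62 and -0.39 in the carbon metastasis. Hist1h4i was the highest, at 0.21 and 0.48, 0.28 and 0.52, and 0.17 and 0.47 in the same order. These 2 H4 genes were picked as the ends of their class, so a gap between their values follows largely from that choice. The second probe of Hist1h4d read -0.64 ± 0.22, -0.64 ± 0.08 and -0.59 ± 0.02 in the same order. In the gamma and carbon metastases that was below the Hist1h4a means of -0.54 and -0.50. The lowest H2A gene was Hist1h2ai in the unirradiated metastasis (-0.63 and -0.48) and in the carbon metastasis (-0.77 and -0.70), and Hist2h2aa1 in the gamma metastasis (-0.66 and -0.98). Hist1h2ae was the highest H2A gene in all 3, at 0.09 and -0.08, -0.09 and -0.21, and -0.12 and -0.31. The H2B medians were -0.03, -0.11 and 0.12, on either side of 0, and with the metastasis in Cy5 alone the first of them was 0.07. Hist1h2bc was the highest H2B gene in the unirradiated and carbon metastases and Hist2h2be in the gamma metastasis, where it read 0.66 and 0.50 (0.58 ± 0.12). Hist1h2ba was the lowest H2B gene in all 3, at -0.21 and -0.34, -0.14 and -0.48, and 0.04 and -0.38. The H3 medians were -0.22, -0.08 and 0.29, the last of which was -0.15 under median centring. Hist1h3d was the lowest H3 gene in the unirradiated metastasis, at -0.24 and -0.28, and Hist1h3a in the gamma metastasis, at -0.06 and -0.21, and in the carbon metastasis, at -0.06 and -0.16. The highest were Hist1h3a in the unirradiated metastasis, at 0.17 and 0.08, and Hist2h3c1 in the gamma metastasis, at 0.004 and -0.10, and the carbon metastasis, at 0.43 and 0.28.

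No histone gene was called when metastases were compared with each other or with the primary tumour of the same treatment, taken through the unirradiated primary. The counts of measured members were 30 for gamma against unirradiated metastasis, beside 3.14% of all genes called in either direction. They were 29 for carbon against unirradiated metastasis (4.09%) and 29 for carbon against gamma metastasis (1.25%). For metastasis against primary they were 30 after gamma rays (7.62%) and 29 after carbon ions (7.76%). In the carbon metastasis against the unirradiated metastasis, all 9 measured H2A genes were below 0 in both orientations, at -0.33 to -0.18. Of all measured genes, 7439 of 15948 were below 0 in both there. Hist1h3d and Hist2h3c1 read 0.55 ± 0.001 and 0.57 ± 0.11. In the gamma metastasis against the gamma primary, 25 of 30 histone genes were below 0 in both orientations, with a median of -0.28. Of all measured genes, 6619 of 15497 were, with a median of 0.02. In the carbon metastasis against the carbon primary, 5 of 6 H2B genes were below 0 in both orientations with a median of -0.67. Of all measured genes, 6323 of 15248 were below 0 in both there. The H2A median was 0.15, or -0.22 under median centring. Near-identical readings were not merged in these counts. Each of these comparisons shares the unirradiated primary with the others, and some share a metastasis or primary RNA.

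At a lower limit of 1.5-fold in both orientations, 9 of 30 histone genes passed in the carbon primary, where 13.3% of all genes did. This count and those below are of genes, and near-identical readings were not merged in them. Hist1h2bk, Hist1h2bm and Hist3h2bb gave nearly the same reading, and so did Hist1h2ai and Hist1h2ak. The 5 higher were Hist1h1c, Hist1h2bc, Hist1h2bk, Hist1h2bm and Hist3h2bb, and the 4 lower were Hist1h1d, Hist1h1e, Hist1h2ai and Hist1h2ak. The second probe of Hist1h2bk, at 0.63 and 0.12, did not pass. In the gamma primary 2 of 30 passed (8.33% of all genes), Hist1h1d and Hist1h1e, both lower. Directly between the irradiated primaries 4 of 30 passed (3.8% of all genes), with Hist1h1c and Hist1h2bc higher and Hist1h2ai and Hist1h2ak lower in carbon. In the metastases 4 of 30, 3 of 31 and 6 of 29 passed, beside 21%, 19.4% and 17.9% of all genes. The carbon metastasis had 1 such gene of 29 against the unirradiated metastasis, Hist1h1c, higher (11.9% of all genes). Against the carbon primary it had 5 of 29, Hist1h1c, Hist1h2ba, Hist1h2bk, Hist1h2bm and Hist3h2bb, all lower (16.7% of all genes).

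Histone genes are often read with the genes of DNA replication and division, whose lists are given here by their counts. Of 36 S phase genes none was called in the gamma or the carbon primary. Their median was 0.24 in the gamma primary, with 28 of 36 above 0 in both orientations, and -0.24 in the carbon primary, with 24 of 36 below 0 in both. All 35 measured S phase genes were below 0 in both orientations directly between carbon and gamma, with a median of -0.43, from -0.68 for Cdc6, which loads the replicative helicase, to -0.02 for Gins2, a part of that helicase. The 27 mitosis genes read 0.29 in the gamma primary (25 above 0 in both orientations), -0.30 in the carbon primary (25 below) and -0.56 between them (27 below), and none was called. Beside these, the H2A medians were -0.02, -0.74 and -0.75 and the H2B medians 0.22, 0.78 and 0.51 in the same order. In both comparisons of the carbon primary, H2A had the sign of the division genes and H2B the opposite one. In the gamma primary, H2B had the sign of the division genes and H2A lay at -0.02. In the metastases the S phase medians were -0.36, -0.28 and -0.23 and the mitosis medians -0.33, -0.20 and -0.25.

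**Figure D4:**
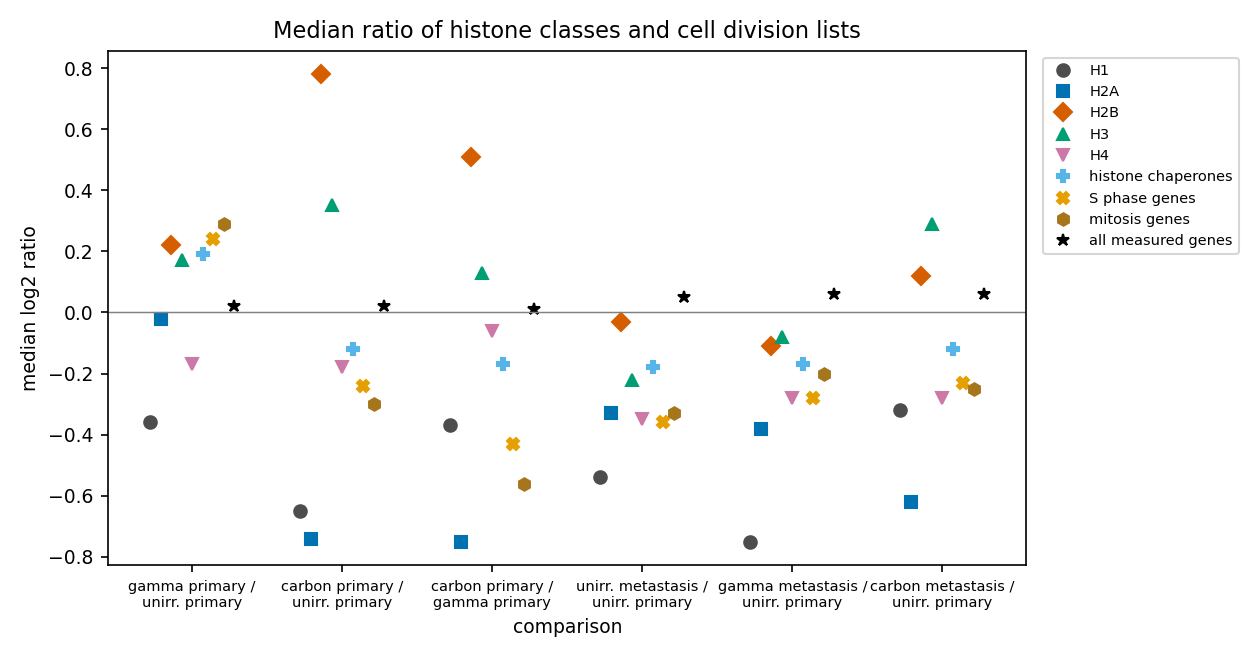
Median log2 ratio (vertical axis) of each histone class, of the histone chaperone, S phase and mitosis lists and of all measured genes, in the 6 direct comparisons (horizontal axis; unirr. is unirradiated). In the carbon primary the H2B median of 0.78 and the mitosis median of -0.30 lie on opposite sides of 0, while all genes lie at 0.02.

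Histone chaperones, which carry histones to DNA, had medians of 0.19 in the gamma primary, -0.12 in the carbon primary and -0.17 between them, and 0 of 28 were called in each. Of 23 genes that transcribe histone genes or process their messages, 0 were called in either irradiated primary, and the median was -0.05 for gamma and -0.16 for carbon. In that list, where 23 were measured, Cstf2t was the 1 called in each metastasis. Cstf2t, a cleavage factor paralogue, rose in the unirradiated, gamma and carbon metastases by 2.50 ± 0.17, 2.13 ± 0.13 and 1.92 ± 0.03. Ccne2, a cyclin of S phase entry that is also in the S phase list, fell by 1.12 ± 0.07 on the log2 scale in the carbon against the unirradiated metastasis.

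Histone genes outside the clusters make variants that are made through the cell cycle, and 13 of 15 listed were on the array. H2az2, which encodes an H2A.Z variant, rose in the carbon primary by 1.08 ± 0.08, the 1 of 10 measured that was called. H1f0, the linker histone of cells that have stopped dividing, fell by 1.37 ± 0.09 on the log2 scale in the unirradiated metastasis, the 1 of 11 measured, and rose by 1.47 ± 0.16 in the carbon against the unirradiated metastasis. Of the 12 cell cycle exit genes, 11 were measured in each comparison with the unirradiated primary. Cdkn1c, a cyclin-dependent kinase inhibitor, fell by 1.22 ± 0.05 on the log2 scale in the gamma primary. Cdkn2b, another such inhibitor, rose by 2.52 ± 0.05 in the unirradiated metastasis and 1.84 ± 0.004 in the carbon metastasis, and read 1.54 and 1.45 in the gamma metastasis. Through the unirradiated primary, Cdkn2b fell by 1.03 ± 0.01 on the log2 scale in the gamma against the unirradiated metastasis, and Ccng2, a cyclin of resting cells, rose by 1.14 ± 0.03 in the carbon against the unirradiated metastasis.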

How the data were processed

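Arrays of Agilent design 014868 were read with Feature Extraction 9.1.3.1 and its protocol GE2-v5_91_0806, per the file headers. As deposited, the intensity values used here are mean spot and median local background signals of each channel, without normalization. The deposited log10 ratios are Cy5 over Cy3 after Feature Extraction's own background and dye correction, and the authors' value table equals them within 0.005, with a median of 0 in each column. For other steps nothing is given in the sources used here.

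Here limma 3.58.1 in R 4.3.3 applied normexp with an offset of 50, which pulls dim ratios toward 0, and loess within each array, with control spots at weight 0. Flagged spots, 16 to 58 per array, were left out. Ratios were turned by the dyes in the labels, spots averaged per probe, and the brightest probe stood for a gene. Later steps used Python 3.11.15, numpy 2.4.6, pandas 2.3.3 and matplotlib 3.10.9. Of the probes, 22951 took a symbol from a RefSeq table (GRCm38.p6, used for names and promoters) through their accession, 6659 through the symbol and 3109 through a former one, and 8455 kept the file's name. The 12 arrays lay on 3 slides, both arrays of a swap on 1 slide, so slide cannot be told apart from most comparisons. The normalization and the 2-fold rule were checked on simulated arrays. The dye effect of each simulated gene was drawn anew for each array. The check thus did not cover dye effects that repeat over swaps, as in Hist1h2aa. With 1 RNA per group no test was made, and the number of arrays limits the precision.

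Every member may be named, and values per array are given for called members and for the ends of each class, with other lists' genes named where called or at the ends of their list. Among the class ends, Hist2h2aa2, Hist2h2be, Hist1h3a and Hist1h2ae were dim, with mean log2 intensities of 6.50, 7.01, 7.41 and 7.97. The members and lists were chosen with earlier results of these data known. Alternatives changed the offset, normalization, dim-probe filter, probe rule, orientation, size rule, route and source of the ratio.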

Additional observations from a re-analysis of the deposited data

Results flagged for a closer look

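Among called histone genes, Hist1h1d and Hist1h1e differed from the unirradiated RNA of the same site with opposite signs in primaries and metastases. This held for both gamma rays and carbon ions, and in Hist1h2bc for gamma rays, in both dye orientations. These differences between sites were not tested, since each group is 1 RNA, and the metastasis values were taken through the unirradiated primary. For Hist1h1d, the gamma minus unirradiated difference was -1.19 ± 0.13 in primaries and 0.53 ± 0.06 in metastases, a gap of -1.72. For the same gene, the carbon minus unirradiated difference was -1.12 ± 0.05 and 0.57 ± 0.08, a gap of -1.68. For Hist1h1e, the gamma difference was -0.70 ± 0.14 in primaries and 0.19 ± 0.23 in metastases, a gap of -0.90. Its carbon difference was -1.19 ± 0.03 and 0.77 ± 0.79, a gap of -1.96. For Hist1h2bc, the gamma difference was 0.33 ± 0.17 and -0.14 ± 0.05, a gap of 0.47, and its carbon difference had the same sign at both sites, at 1.36 ± 0.17 and 0.05 ± 0.003. Opposite signs were not particular to the called genes. Hist1h4a read -0.23 and -0.25 in the gamma and carbon primaries, and 0.11 and 0.15 in the metastases of those groups against the unirradiated metastasis. After gamma rays, 6 of 6 H2B genes were above 0 in both orientations in the primary and 5 of 6 were below 0 in the metastasis. Of 6 H4 genes, 4 were below 0 and then 5 above it. The unirradiated primary enters the primary differences directly, and Hist1h1d rests on 1 of its 3 probes.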

How the results depend on the processing

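The class medians of H2A and H2B in the carbon primary, against either other primary, kept their sign under every alternative run. Of the values of called genes under the alternatives, 77 stayed called by the rule of that setting, 14 did not and none changed sign. A called gene must also pass at 1.5-fold, in either orientation alone and without the filter on dim probes. Those settings could not lose a call, and their values are among the 77. Of the medians over all histone genes, 68 moved by less than the SD of the 2 orientations and 32 by more, 91 counts of higher genes and 80 of lower genes stayed within 1.5 times, and 20 and 31 did not. Under median centring, the counts became 0 lower in the gamma primary, 0 higher and 0 lower in the carbon primary, 0 higher in carbon against gamma, 0 lower in the gamma and the carbon metastasis, and 1 lower in the carbon metastasis against its primary. The Hist1h1c ratio was then 1.32 in the carbon primary and 1.23 against gamma, Hist1h2bc 1.37, Hist1h1e -1.20 and Hist1h1d -1.17 and -1.08 in the gamma and carbon primaries, each with 1 orientation short of 2-fold. The medians became -0.07 for the gamma primary, -0.51, -0.64 and -0.58 for the unirradiated, gamma and carbon metastases, -0.19 and -0.13 for the gamma and carbon against the unirradiated metastasis, and -0.61 and -0.38 for metastasis against primary after gamma rays and carbon ions. Agilent's processed ratio gave medians of -0.30, -0.35 and -0.43 for the 3 metastases, 0.02 for carbon against unirradiated metastasis and -0.38 for gamma metastasis against gamma primary. Its counts were 1 higher in the unirradiated metastasis, 1 higher and 2 lower in the gamma metastasis, 2 lower in the carbon metastasis and 1 lower in gamma metastasis against gamma primary. With the mean of all probes, 0 genes were lower in the gamma primary and in each metastasis and 1 in the carbon primary, and the median of the unirradiated metastasis was -0.28. An offset of 0 gave -0.29 and 1 higher gene in the unirradiated metastasis, and -0.33 for gamma metastasis against gamma primary. Those medians were -0.23 and -0.24 without the filter on dim probes, -0.28 and -0.26 with both RNAs above background, and -0.25 and -0.24 with scaling between arrays, which also gave 2 higher genes in carbon against gamma and 0 lower in the carbon metastasis. With the first RNA in Cy5 alone, the medians were -0.05 for the gamma primary, -0.21 for carbon against gamma, -0.22, -0.14 and -0.14 for the 3 metastases, 0.04 for carbon against unirradiated metastasis and -0.31 for gamma metastasis against gamma primary. The counts were then 6 lower in the carbon primary, 2 higher and 4 lower in carbon against gamma, 2 lower in the carbon metastasis, 1 higher and 1 lower in the carbon metastasis against each other metastasis, and 1 higher against its primary. With the first RNA in Cy3 alone, the medians were 0.003 for the carbon primary, -0.23 for the unirradiated metastasis and -0.20 for carbon metastasis against carbon primary. The counts were then 1 higher in the gamma primary, 5 lower in the carbon primary, 3 lower in carbon against gamma, and 1 higher with 2, 3 and 4 lower in the unirradiated, gamma and carbon metastases. At 1.5-fold the counts were 2 lower in the gamma primary, 5 higher and 4 lower in the carbon primary, 2 higher and 2 lower in carbon against gamma, 2 higher and 2 lower in the unirradiated metastasis, 3 lower in the gamma metastasis, and 1 higher and 5 lower in the carbon metastasis. They were 1 higher in carbon against unirradiated metastasis and 5 lower in carbon metastasis against carbon primary. Taken through the unirradiated primary, carbon against gamma had 2 higher genes. Except where the rule itself changed, the cause of these shifts was not tested. No paired analysis was possible because every group is 1 RNA with the same replicate number. Genes not above background, Hist1h1t, Hist1h2ac and Hist1h2be among them, have only a bound, and near-identical genes cannot be separated by these probes.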
